A study of Mus musculus with 14 samples.

Results

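Housing temperature was compared in brown fat that lacked Lrpprc in its Ucp1-expressing cells, with 4 mice kept at 22 °C (room temperature) set against 3 mice kept at 30 °C (thermoneutrality, at which a mouse spends little energy on staying warm). They are 7 of the 14 animals of the series, chosen by their labelled genotype and housing temperature. All 7 were C57BL/6 mice of 8 weeks with the genotype LrpprcFF Ucp1-Cre, so that floxed Lrpprc alleles, the Cre transgene and the deletion itself stood on both sides of the comparison. The other 7 animals were LrpprcFF mice without the transgene, 4 at 22 °C and 3 at 30 °C, and serve here as the matching comparison in controls. RNA came from whole homogenised tissue, although the labelled cell type is brown adipocytes. Cre driven by Ucp1 acts in cells that express Ucp1, so vessels, immune cells, nerve and muscle in the sample should have kept their Lrpprc. Lrpprc was not measured by cell type here.

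Temperature was confounded with other differences between the 2 sets of knockouts. These knockouts carried identifiers from separate number ranges, E38 followed by further digits at 22 °C and E015 to E017 at 30 °C, and nothing in the labels says that they were bred, kept or sequenced together. Among controls, 2 of the 4 animals at 22 °C carried identifiers with another first letter, R in place of E. The X-linked transcript Xist, made where an X chromosome is inactivated, lay at 0 to 0.0141 FPKM in the 4 knockouts at 22 °C and at 13.8 to 18.4 FPKM in the 3 at 30 °C. The Y-linked gene Ddx3y lay at 20.1 to 23.1 FPKM in the former and at 0 to 0.0244 FPKM in the latter. The labels give no sex, and the same split ran through the controls, where Ddx3y was 14.5 to 20.7 FPKM at 22 °C and 0 to 0.0228 FPKM at 30 °C. Temperature, the sex-linked difference and any batch of breeding or sequencing therefore cannot be told apart, and every difference below is one between these 2 sets of animals. Only autosomal genes are reported for that reason, although autosomal genes can differ with sex too.

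Expression is given as FPKM, fragment numbers normalised to gene length and library depth, which the authors deposited for each animal. Over the 14 libraries depth was 15.9 to 21.3 M fragments, as read from the spacing of low values. Reads were assigned to genes in a way that is not given in the sources used here, strand included, so values are uncertain for the 40 of 163 named genes whose exons overlap another gene on the opposite strand, among them Elovl3, Dio2, Acot11, Acsl5, Gpd2, Dusp1, Junb and Thbs1. Exons of 7 named genes overlap another gene on the same strand, among them Cd74, Cebpg, Cpt1b and Srebf1, and their values are uncertain too. Skeletal muscle markers also differed in level between the knockouts. The summed FPKM of the 17 muscle markers tested was 800.8 to 1984 at 22 °C and 2953 to 11577 at 30 °C, with the lowest value at 30 °C in animal 2. None of the 17 passed the test in the fit over all 14 animals, with a median log2 fold change of -1.94, and 15 passed as lower in a fit of the 7 knockouts alone. The actin gene Acta1 had 151, 371, 299.7 and 449 FPKM at 22 °C and 4520.4, 924 and 3496 FPKM at 30 °C. Between controls the summed muscle markers overlapped, at 527 to 7546 FPKM at 22 °C and 87.9 to 15587 FPKM at 30 °C. A fit with a muscle score as covariate was run beside the main one, and it is cited where it ended a call or moved a count or median by over 1.5 times. In whole tissue, fewer cells of a type and less RNA per cell cannot be told apart.

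Lrpprc encodes an RNA-binding protein of mitochondria that stabilises messages made from mitochondrial DNA, on which the respiratory chain depends. Brown fat makes heat when noradrenaline from sympathetic nerves acts on its adrenergic receptors, raises cAMP, releases fatty acids and opens the uncoupling protein Ucp1 in mitochondria. At room temperature a mouse is under mild cold stress and this system is in use, whereas at thermoneutrality nerve activity falls and the tissue takes on features of white fat. The comparison asks how far the gene programme still differed between the 2 temperatures when Lrpprc was missing.

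Lrpprc itself (ENSMUSG00000024120, on chromosome 17) was examined first. It had 11.8, 12.5, 9.34 and 11.5 FPKM in the knockouts at 22 °C and 8.24, 5.95 and 9.91 FPKM in those at 30 °C, against 23.2 to 47.1 FPKM in the controls at 22 °C and 28.6 to 31.0 FPKM at 30 °C. Every knockout therefore lay under every control. The knockout animals at the 2 temperatures overlapped in deposited FPKM. After each library was scaled, as for the test, every knockout at 22 °C lay above every knockout at 30 °C. The difference in residual level between the temperatures did not pass the test (log2 fold change 0.54 with SE 0.23 and limma adjusted p = 0.0645), but it did after quantile normalization, with sample weights, on recovered reads and in a fit of the knockouts alone (adjusted p 0.0186 to 0.0418).

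The difference between the knockouts was broad. Of 12607 autosomal genes tested, 6483 had an adjusted p under 0.05 by limma, or 51.4%, and this share is the background for the counts of named groups below. At 22 °C, 2744 genes were higher (21.8% of those tested) and 3739 were lower (29.7%). The ranges of the 2 groups, compared in scaled FPKM, did not overlap in 7061 genes (56.0%). With a log2 fold change of at least 1 as a further condition, 367 genes were higher and 1325 lower. The balance of the 2 directions depends on the scaling: 42.3% of calls were higher at 22 °C, but 58.6% after quantile normalization (4043 higher, 2852 lower). The median log2 fold change of all genes tested was -0.07, and it was -0.16 with FPKM as deposited and 0.09 after quantile normalization, so changes are best read relative to that shift. Across genes, which are not independent replicates, fold change had a Spearman correlation of -0.49 with the GC content of the transcript, and with a GC trend removed 2636 genes were higher and 2534 lower. Rank correlations of expression were 0.953 to 0.984 over the 9 pairs of knockouts of the same temperature and 0.841 to 0.941 over the 12 pairs of different temperature. When a single 30 °C animal, the one with the least muscle RNA (animal 2), was set against the 4 at 22 °C, 1762 genes passed, 503 higher and 1259 lower. That fit assumes that the lone animal varies like the other groups.

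Genes of thermogenesis were higher at 22 °C. Of 23 autosomal members tested out of a list of 26, 17 passed the test as higher and 0 as lower, with a median log2 fold change of 1.12. The largest increase of any named gene was in Elovl3, which makes very long fatty acids in brown fat under cold. Elovl3 had 187, 50.1, 13.6 and 53.1 FPKM at 22 °C and 0.691, 0.449 and 0.30 FPKM at 30 °C (log2 fold change 5.11 with SE 0.77 and limma adjusted p = 0.000236). Ucp1 (ENSMUSG00000031710, on chromosome 8) had 3677, 1648, 1957 and 1656 FPKM at 22 °C and 299, 433 and 369.8 FPKM at 30 °C (log2 fold change 2.63 with SE 0.34 and limma adjusted p = 0.000101). The 2 temperatures did not overlap in either gene, and animal 1 was the highest of the 22 °C knockouts in both. The coactivator Ppargc1a, which drives mitochondrial biogenesis, had 40.7, 22.6, 50.3 and 32 FPKM at 22 °C and 4.09, 4.57 and 5.17 FPKM at 30 °C (log2 fold change 2.75 with SE 0.28 and limma adjusted p = 3.3e-05). The 3 animals at 30 °C lay within about 1 FPKM of each other, and the lowest animal at 22 °C was well above them.

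**Figure D1:**
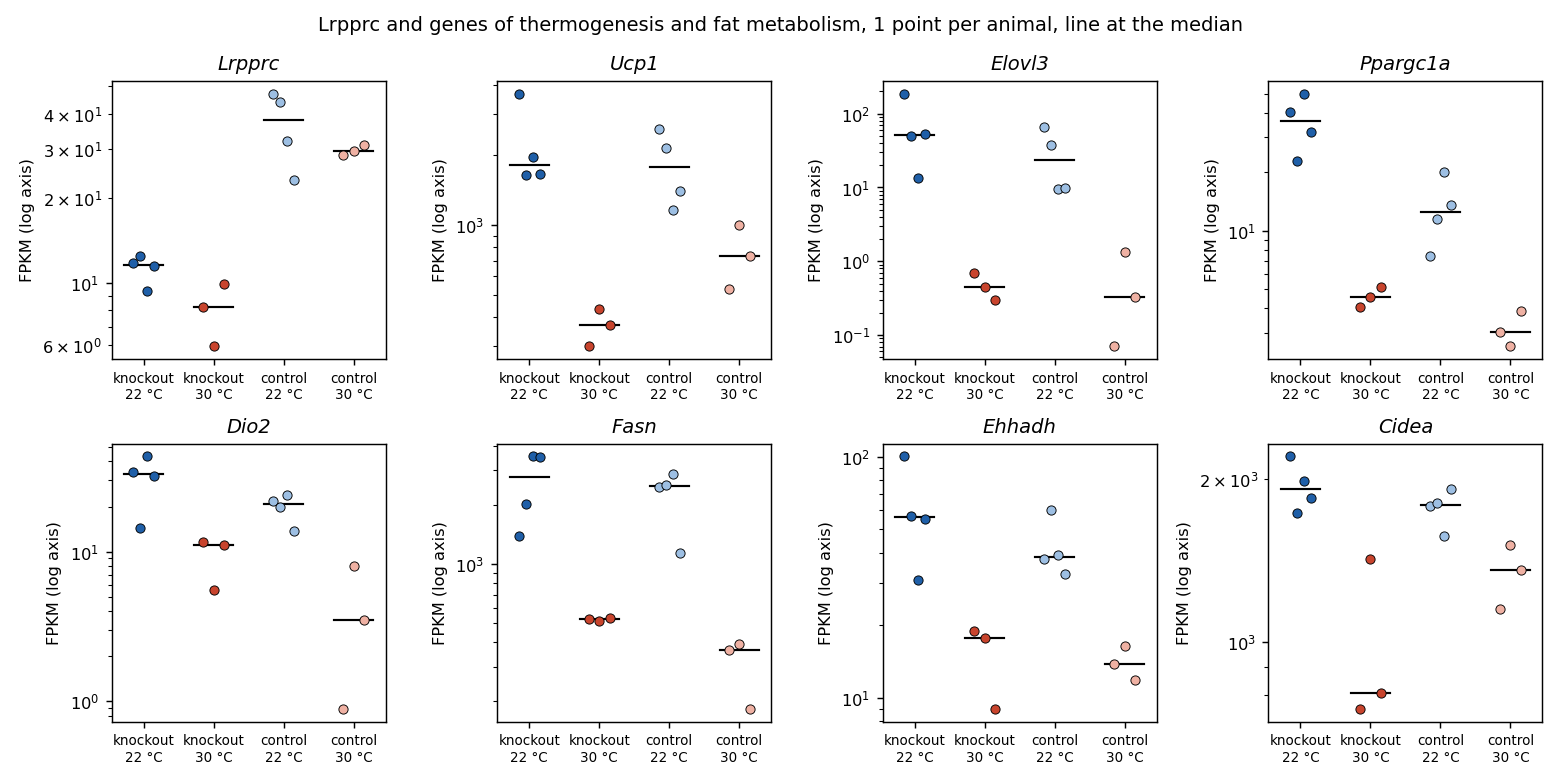
FPKM on a log axis for Lrpprc and 7 genes of thermogenesis and fat metabolism in knockouts and controls at 22 °C and 30 °C, with 1 point per animal and a line at the group median. Elovl3 lies at 13.6 to 187 FPKM in the knockouts at 22 °C and under 1 FPKM in those at 30 °C, and Lrpprc is low in all 7 knockouts.

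Other genes of the programme followed the same direction. Acot11, a thioesterase induced in cold brown fat, had 86.7, 67.2, 65.5 and 96 FPKM at 22 °C and 3.61, 11.2 and 7.75 FPKM at 30 °C (log2 fold change 3.39 with SE 0.35 and limma adjusted p = 3.4e-05). Otop1, which encodes a proton channel, had 92.4 to 145 FPKM at 22 °C and 20.3 to 25.8 FPKM at 30 °C (log2 fold change 2.33 with SE 0.24 and limma adjusted p = 3.3e-05). Clstn3, whose locus also encodes a protein that keeps brown fat droplets small, had 103, 64.5, 111 and 82.3 FPKM at 22 °C and 14.2, 15.4 and 18.5 FPKM at 30 °C (log2 fold change 2.49 with SE 0.22 and limma adjusted p = 1.63e-05). The droplet protein gene Cidea rose less, by a log2 fold change of 1.12 (limma adjusted p = 0.000472). Animal 2 at 30 °C had 1425 FPKM where the other 2 had 753 and 805 FPKM. Cox7a1 and Cox8b, respiratory subunits typical of brown fat and muscle, had log2 fold changes of 1.21 and 1.06 (limma adjusted p = 0.000149 and 0.00038). Prdm16, a determinant of brown fat identity, had the smallest change that passed (log2 fold change 0.60 with SE 0.24 and limma adjusted p = 0.04995). It lost its call in 6 of 7 fits with 1 knockout removed (adjusted p 0.0633 to 0.180). The call was also lost with the muscle covariate, no filter or FPKM as deposited (adjusted p 0.0550 to 0.0888). The potassium channel gene Kcnk3 (log2 fold change 0.84 with SE 0.24 and limma adjusted p = 0.00989) lost its call without animal 1 at 30 °C (adjusted p = 0.0609), and its value was 1.5 with a GC trend removed. With animal 2 as the only one at 30 °C, 9 of the thermogenic genes still passed as higher and 0 as lower, with a median of 0.78.

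Dio2, which encodes the deiodinase that activates thyroid hormone in brown fat, had 34.2, 14.4, 43.3 and 32 FPKM at 22 °C and 11.5, 5.5 and 11.1 FPKM at 30 °C (log2 fold change 1.66 with SE 0.48 and limma adjusted p = 0.0115). Its groups did not overlap, although animal 2 at 22 °C stood only slightly above the highest 30 °C animal, and without animal 2 at 30 °C the adjusted p was 0.0524. The promoters of Dio2 and of 2 immediate early genes described further on, Dusp1 and Btg2, hold the cAMP response element, the palindrome TGACGTCA, on which the cAMP-activated factor CREB acts, and Dio2 went in the opposite direction to these 2. To show this, beside 2 immediate early genes without the full element, the 250 bases before the annotated gene start are printed for 5 genes, from RefSeq on GRCm38.p6, in lower case with every TGACG core, on either strand, in capitals. In the full element the cores of both strands overlap, so it stands as 8 capitals in a row.
Dio2: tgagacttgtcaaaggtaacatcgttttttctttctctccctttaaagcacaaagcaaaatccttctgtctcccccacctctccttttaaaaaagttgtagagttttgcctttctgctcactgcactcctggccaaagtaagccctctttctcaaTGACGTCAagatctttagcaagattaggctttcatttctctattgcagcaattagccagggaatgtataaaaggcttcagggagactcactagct
Dusp1: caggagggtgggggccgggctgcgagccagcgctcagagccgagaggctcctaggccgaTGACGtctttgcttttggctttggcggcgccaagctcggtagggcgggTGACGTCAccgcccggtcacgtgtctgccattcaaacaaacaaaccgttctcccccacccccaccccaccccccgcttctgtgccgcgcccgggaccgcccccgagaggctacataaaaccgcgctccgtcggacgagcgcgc
Btg2: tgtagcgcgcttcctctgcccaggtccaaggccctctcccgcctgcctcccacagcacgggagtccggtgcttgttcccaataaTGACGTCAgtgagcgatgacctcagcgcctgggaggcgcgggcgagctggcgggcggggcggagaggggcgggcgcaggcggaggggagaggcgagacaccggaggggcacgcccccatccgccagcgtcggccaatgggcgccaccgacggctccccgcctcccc
Fos: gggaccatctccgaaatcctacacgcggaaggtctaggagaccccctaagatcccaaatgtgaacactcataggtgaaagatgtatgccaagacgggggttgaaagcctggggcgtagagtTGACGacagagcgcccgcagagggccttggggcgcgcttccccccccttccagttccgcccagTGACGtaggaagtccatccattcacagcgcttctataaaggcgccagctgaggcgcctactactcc
Nr4a1: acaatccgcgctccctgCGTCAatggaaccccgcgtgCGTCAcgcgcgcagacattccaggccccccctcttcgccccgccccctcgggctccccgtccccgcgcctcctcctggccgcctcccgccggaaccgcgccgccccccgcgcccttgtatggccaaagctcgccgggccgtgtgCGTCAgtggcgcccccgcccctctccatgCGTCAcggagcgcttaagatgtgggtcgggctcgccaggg

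The windows lie at chr12:90739039-90739288, minus strand for Dio2, chr17:26508473-26508722, minus strand for Dusp1, chr1:134079156-134079405, minus strand for Btg2, chr12:85473640-85473889, plus strand for Fos and chr15:101266596-101266845, plus strand for Nr4a1. The full element begins at -95 in Dio2, -143 in Dusp1 and -166 in Btg2, counted from the gene start, and does not occur in the windows of Fos and Nr4a1, which hold 2 and 4 cores. Over the upstream 250 bases of all 32851 promoters in the table, 1.55% hold the full element and 17.8% a core. Counted per gene, 2 of the 16 immediate early genes with an entry hold the full element and 10 hold a core, and of 18 thermogenic genes with an entry 1 holds the full element and 4 (Dio2, Ppara, Ppargc1a and Ucp1) a core. Over all 27025 genes with an entry, 1.77% hold the full element and 19.8% a core. A match describes these letters and is not a measured binding site.

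Adrenergic and cAMP signalling genes did not move as a block. Of 27 tested, 8 were higher at 22 °C and 5 lower, with a median of 0.28. Prkar2b, the regulatory subunit of protein kinase A that is abundant in fat, had 450.1 to 512 FPKM at 22 °C and 163 to 274 FPKM at 30 °C (log2 fold change 1.36 with SE 0.23 and limma adjusted p = 0.00054). The alpha-adrenergic receptor gene Adra1a was higher at 22 °C (log2 fold change 1.10, limma adjusted p = 0.00351) and the beta receptor gene Adrb1 was lower, with 13.1, 16.1, 8.17 and 13 FPKM at 22 °C and 31.3, 46.5 and 39.5 FPKM at 30 °C (log2 fold change -1.48 with SE 0.37 and limma adjusted p = 0.0049). Adrb3, the main beta receptor of rodent fat, had 62.3, 82, 102 and 61.6 FPKM at 22 °C and 136, 76.7 and 93 FPKM at 30 °C, which overlapped (log2 fold change -0.29, limma adjusted p = 0.435). Of the cAMP phosphodiesterases, Pde3b was higher at 22 °C (log2 fold change 1.13) and Pde4b was lower (log2 fold change -1.58), with limma adjusted p = 0.00264 and 0.00106. Without animal 1 at 30 °C 2 members were lower instead of 5, without animal 3 at 30 °C or animal 4 at 22 °C 3 were, and the median was 0.07 without animal 3 at 30 °C and 0.11 without animal 3 at 22 °C. The lower members were 3 with the muscle covariate and 2 with a GC trend removed, where Adrb1 was not called (log2 fold change -0.84, adjusted p = 0.104).

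Of 11 genes tested for heat-producing cycles other than Ucp1, 54.5% were called, close to the 51.4% of all genes tested. Ucp3 alone was higher at 22 °C (log2 fold change 0.99 with SE 0.21 and limma adjusted p = 0.00219) and 5 were lower. Ckb, the creatine kinase of the creatine cycle, had 109, 90.2, 38 and 34.6 FPKM at 22 °C and 205, 364 and 277 FPKM at 30 °C (log2 fold change -2.07 with SE 0.36 and limma adjusted p = 0.000594). Gamt, an enzyme of creatine synthesis, and Ucp2, a Ucp1 relative found in many cells including macrophages, were also lower (log2 fold changes -1.61 and -1.88, limma adjusted p = 0.000475 and 0.000274). Every 22 °C animal was below every 30 °C animal in these 3 genes. The part of muscle RNA in this list was not tested gene by gene, and its median went from -0.95 to -0.30 with the muscle score as covariate. A GC trend removed took Ckb to -1.21 and Gamt to -0.90, both still called.

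Genes of fatty acid and triglyceride synthesis were higher at 22 °C as well. Of 25 tested, 21 rose and 2 fell, with a median of 1.21. Fasn, fatty acid synthase, had 1385, 2025, 3540.0 and 3512 FPKM at 22 °C and 525, 511 and 529 FPKM at 30 °C (log2 fold change 2.32 with SE 0.40 and limma adjusted p = 0.000547). The 3 animals at 30 °C were nearly alike, and at 22 °C animals 3 and 4 had more than animals 1 and 2. Acaca, which makes malonyl-CoA for the same pathway, showed the same order, with 174, 284, 442 and 498 FPKM at 22 °C and 54, 82.2 and 54.9 FPKM at 30 °C (log2 fold change 2.45 with SE 0.38 and limma adjusted p = 0.000292). Scd1, the stearoyl-CoA desaturase, reached 3673 to 8851 FPKM at 22 °C against 847 to 1606 FPKM at 30 °C (log2 fold change 2.42 with SE 0.33 and limma adjusted p = 0.000142). Acly, Elovl6, Gpam and Thrsp were also higher, with log2 fold changes of 1.97, 2.0, 1.98 and 1.71, and with no overlap between the groups.

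The 2 lower members were Fads1 and Fads2, the desaturases of polyunsaturated fatty acids. Fads1 had 6.24, 9.91, 7.69 and 8.24 FPKM at 22 °C and 18.4, 17.2 and 18 FPKM at 30 °C (log2 fold change -0.98 with SE 0.14 and limma adjusted p = 0.000151). Fads2 had a log2 fold change of -0.87 (limma adjusted p = 0.00103), and of -0.56 with a GC trend removed, still called. Of the 2 transcription factors that drive the pathway, Mlxipl (ChREBP) was higher at 22 °C (log2 fold change 0.71 with SE 0.15 and limma adjusted p = 0.00195), with 1.18 once a GC trend was removed. Srebf1 was not called, with 59.1, 144, 128 and 124 FPKM at 22 °C, where animal 1 stood apart, and 133, 115 and 176 FPKM at 30 °C (log2 fold change -0.27 with SE 0.28 and limma adjusted p = 0.439). Cholesterol genes split, with 9 of 21 higher and 5 lower and a median of 0.10. Insig1, which holds the sterol-sensing complex in the endoplasmic reticulum, was the highest (log2 fold change 1.43, limma adjusted p = 0.00309), while Srebf2, the factor that drives the pathway, and Mvd were lower (log2 fold changes -0.74 and -1.08, limma adjusted p = 0.000119 and 0.000135). With a GC trend removed Srebf2 was not called (log2 fold change -0.17, adjusted p = 0.182), Mvd was at -0.42, and 5 cholesterol genes were higher and 3 lower, with a median of 0.33. Without animal 1 at 30 °C, 5 cholesterol genes were higher instead of 9, and the median was 0.19 without animal 3 at 22 °C and 0.06 without animal 3 at 30 °C.

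Fatty acid oxidation genes were higher beside those of synthesis, with 19 of 24 tested called as higher and 0 as lower (median 0.82). Ehhadh, a peroxisomal oxidation enzyme, had 100.2, 56.8, 30.7 and 55.1 FPKM at 22 °C and 18.9, 17.8 and 8.99 FPKM at 30 °C (log2 fold change 1.96 with SE 0.34 and limma adjusted p = 0.000538). The carnitine carrier gene Slc25a20 and Cpt2, which together bring acyl groups into the matrix, had log2 fold changes of 1.46 and 1.30 (limma adjusted p = 0.000235 and 0.000217). Cpt2 was 179 to 237 FPKM in the 22 °C animals and 88.9 to 94.1 FPKM in the 30 °C animals. Cpt1b, the muscle-type carnitine palmitoyltransferase that brown fat uses, was not called, with 20.6, 12, 15.5 and 6.99 FPKM at 22 °C and 6.56, 13.1 and 7.42 FPKM at 30 °C (log2 fold change 0.61 with SE 0.26 and limma adjusted p = 0.0696). Ppara, the nuclear receptor that drives these genes, was higher (log2 fold change 1.32 with SE 0.29 and limma adjusted p = 0.00245).

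Genes of lipid uptake, droplets and lipolysis were less uniform, with 11 of 24 tested higher and 3 lower (median 0.34). The median was 0.16 without animal 2 at 30 °C and 0.20 without animal 4 at 22 °C, and 1 member was lower without animal 4 at 22 °C, without animal 1 at 30 °C, with the muscle covariate or with a GC trend removed. Acsl5, which activates fatty acids, had 133, 101, 119 and 166 FPKM at 22 °C and 24.2, 19.4 and 17.6 FPKM at 30 °C (log2 fold change 2.69 with SE 0.28 and limma adjusted p = 3.3e-05). The lipoprotein receptor gene Vldlr was also higher (log2 fold change 1.78, limma adjusted p = 8.41e-05). Lpl, lipoprotein lipase, had a smaller change (log2 fold change 0.60, limma adjusted p = 0.00412, and 0.37 with a GC trend removed, still called). Angptl4, a secreted inhibitor of that lipase, was lower, with 125, 174, 147 and 72.8 FPKM at 22 °C and 334, 515 and 336 FPKM at 30 °C (log2 fold change -1.54 with SE 0.41 and limma adjusted p = 0.00685). Gpihbp1, which anchors the lipase on capillaries, was lower as well (log2 fold change -0.75 with SE 0.26 and limma adjusted p = 0.03). Its call was lost without animal 2, 3 or 4 at 22 °C or animal 1 or 2 at 30 °C (adjusted p 0.0626 to 0.0947), with the muscle covariate (adjusted p = 0.0585) and with a GC trend removed (adjusted p = 0.127). The droplet gene Plin2 was called as higher (log2 fold change 1.0 with SE 0.36 and limma adjusted p = 0.0313) on groups that overlapped, 1887, 825, 505 and 673 FPKM at 22 °C and 555, 356 and 480.3 FPKM at 30 °C, and without animal 1 at 22 °C its adjusted p was 0.0593. It was also lost without animal 2 or 3 at 30 °C (adjusted p = 0.113 and 0.0655) and with the muscle covariate (adjusted p = 0.0698).

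Genes of glucose use were higher in 12 of 24 cases and lower in 2 (median 0.48). Hk2, the inducible hexokinase, had 99.4, 85.1, 145 and 147 FPKM at 22 °C and 31.4, 38.9 and 41.7 FPKM at 30 °C (log2 fold change 1.71 with SE 0.26 and limma adjusted p = 0.000278). Slc2a4, the insulin-responsive transporter GLUT4, was higher by a log2 fold change of 0.66 (limma adjusted p = 0.0123, and 0.0767 without animal 1 at 30 °C). By contrast Slc2a1, the basal transporter GLUT1, was lower, with 4.14, 4.74, 3.3 and 2.75 FPKM at 22 °C and 13.2, 8.46 and 13.6 FPKM at 30 °C (log2 fold change -1.32 with SE 0.16 and limma adjusted p = 7.98e-05). Pdk4, which blocks entry of pyruvate into the citric acid cycle, was higher (log2 fold change 1.18 with SE 0.32 and limma adjusted p = 0.00861). So was Pdhb, a subunit of the enzyme it inhibits, with 918, 851, 1019 and 1089 FPKM at 22 °C and 284, 423 and 388 FPKM at 30 °C (log2 fold change 1.52 with SE 0.18 and limma adjusted p = 6.55e-05). The other lower glucose gene was Aldoc, an aldolase (log2 fold change -1.39, limma adjusted p = 0.00116). Of the 16 citric acid cycle and pyruvate dehydrogenase genes, 14 were higher and Idh2 alone was lower (log2 fold change -0.62 with SE 0.13 and limma adjusted p = 0.00165). Idh2 was not called with a GC trend removed (log2 fold change -0.22, adjusted p = 0.192), and without animal 1 at 30 °C 8 members were higher. Gpd2, the mitochondrial glycerol phosphate dehydrogenase, was among the 10 largest increases of all genes, with 222, 212, 233 and 279 FPKM at 22 °C and 31.3, 70.8 and 35.8 FPKM at 30 °C (log2 fold change 2.52 with SE 0.27 and limma adjusted p = 3.98e-05).

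Nuclear genes for the respiratory chain were mostly called as higher at 22 °C. Complex I had 25 of 35 subunits higher (median 0.42), complexes II and III with cytochrome c had 11 of 14 (median 0.72), complex IV had 8 of 12 (median 0.53) and ATP synthase 11 of 18 (median 0.50). Ndufa4, listed here with complex I, had 1303, 1245, 1360.4 and 1498 FPKM at 22 °C and 674, 759 and 610.3 FPKM at 30 °C (log2 fold change 1.09 with SE 0.12 and limma adjusted p = 4.94e-05). Atp5mpl had 551, 437, 484 and 494 FPKM at 22 °C and 219, 219 and 216 FPKM at 30 °C (log2 fold change 1.26 with SE 0.13 and limma adjusted p = 3.52e-05). In both genes every 30 °C animal lay under every 22 °C animal. Uqcrc2 and Cox6b1, subunits of complexes III and IV, had log2 fold changes of 1.06 and 1.03 (limma adjusted p = 0.000671 and 8.65e-05). The 1 lower member of complex I was Ndufs7 (log2 fold change -0.50 with SE 0.16 and limma adjusted p = 0.0195), which was not called without animal 2 or 4 at 22 °C or animal 2 at 30 °C (adjusted p 0.0514 to 0.0622) and had a log2 fold change of 0.20 once a GC trend was removed. Without animal 1 at 30 °C, 15 complex I subunits were higher. The muscle isoform Cox6a2 was not called although its groups did not overlap, with 27.1, 39.1, 26.1 and 43.8 FPKM at 22 °C and 319, 76.8 and 270.1 FPKM at 30 °C. It was called in a fit of the 7 knockouts alone (adjusted p = 0.00353), as was Acta1. Atp5g1, a gene for the ring subunit of ATP synthase and not the only one, was lower with 2.47, 4.53, 3.05 and 3.79 FPKM against 24.9, 8.73 and 27.3 FPKM (log2 fold change -2.02 with SE 0.61 and limma adjusted p = 0.0146). The call was lost without animal 1 or 3 at 30 °C (adjusted p = 0.0602 and 0.0644), and its value was -1.20 with the muscle covariate.

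Mitochondrial ribosomal proteins, which translate the messages that Lrpprc protects, were higher in 38 of 76 cases and lower in 2 (median 0.28). Of these, 7 were lower with FPKM as deposited and 1 with the muscle covariate. Cytosolic ribosomal proteins went the other way, with 37 of 77 lower and 2 higher (median -0.38), and 23 lower without animal 3 at 30 °C. With a GC trend removed 7 of them were higher and 28 lower. With animal 2 as the only one at 30 °C their median was -0.10. Mitochondrial chaperones and proteases were higher in 10 of 18 cases and lower in 1. Among them Hspa9, the mitochondrial Hsp70, had 912, 852, 595 and 739 FPKM at 22 °C and 252, 433 and 463 FPKM at 30 °C (log2 fold change 1.15 with SE 0.23 and limma adjusted p = 0.0013). Hspd1, the matrix chaperonin, had a log2 fold change of 0.84 (limma adjusted p = 0.00544). Lars2, the leucyl-tRNA synthetase of mitochondria, was among the 10 largest increases and was uneven. It had 218, 266, 277 and 44.5 FPKM at 22 °C, where animal 4 stood apart, and 20.2, 24.1 and 20.9 FPKM at 30 °C (log2 fold change 2.95 with SE 0.59 and limma adjusted p = 0.0014). The remaining genes of that rank were Aspg, an asparaginase (log2 fold change 3.35 with SE 0.15 and limma adjusted p = 1.86e-08), the bicarbonate cotransporter Slc4a4 (log2 fold change 3.02 with SE 0.50 and limma adjusted p = 0.00039) and the transcription factor Zbtb16 (log2 fold change 2.86 with SE 0.38 and limma adjusted p = 0.000128). Aspg was the steadiest of them, with 165, 120.4, 152 and 156 FPKM at 22 °C and 12.2, 16.5 and 15 FPKM at 30 °C.

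**Figure D2:**
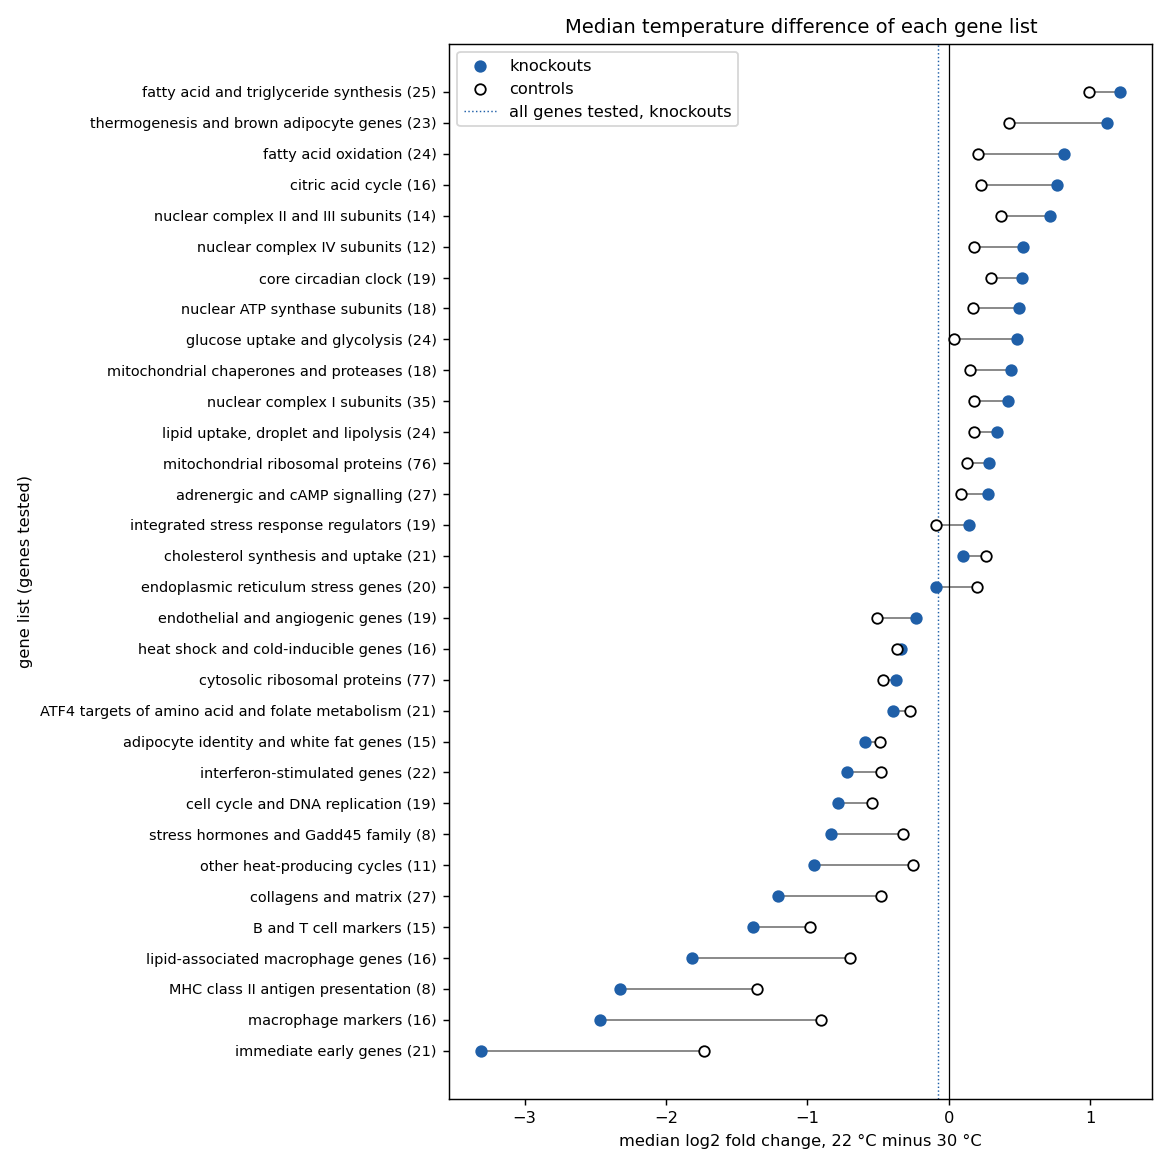
Median log2 fold change between 22 °C and 30 °C (x axis) for each gene list (y axis, with the number of genes tested), as filled points for knockouts and open points for controls. The knockout medians run from -3.31 for immediate early genes to 1.21 for fatty acid and triglyceride synthesis, and the dotted line marks the median of all genes tested in knockouts, -0.07.

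Immediate early genes were the most strongly lowered group at 22 °C. These are transcription factors and signalling brakes that cells switch on within minutes of a stimulus, and 19 of 21 tested were lower and 0 higher, with a median of -3.31. Fos had 0.988, 1.83, 0.387 and 1.98 FPKM at 22 °C and 127, 218 and 72.3 FPKM at 30 °C (log2 fold change -5.71 with SE 0.62 and limma adjusted p = 3.99e-05), the largest decrease of all named genes. Egr1 had 3.74, 3.95, 2.06 and 8.46 FPKM at 22 °C and 175, 402 and 145 FPKM at 30 °C (log2 fold change -5.30 with SE 0.73 and limma adjusted p = 0.000145). Egr3 had 0.264, 0.736, 0.532 and 0.189 FPKM at 22 °C and 38.1, 77 and 27.9 FPKM at 30 °C (log2 fold change -4.81 with SE 0.48 and limma adjusted p = 3.13e-05). In these 3 zinc finger and bZIP factors each 30 °C animal exceeded every 22 °C animal many times over, with animal 2 the highest. Nr4a1, an orphan nuclear receptor, had 7.32, 14.1, 32.2 and 12.7 FPKM at 22 °C and 550.1, 512 and 399 FPKM at 30 °C (log2 fold change -4.86 with SE 0.69 and limma adjusted p = 0.000176). Dusp1, a phosphatase that switches off MAP kinases, had 41.1, 16.3, 14.4 and 55.3 FPKM at 22 °C and 424, 509 and 472 FPKM at 30 °C (log2 fold change -3.95 with SE 0.59 and limma adjusted p = 0.000231). Btg2, an antiproliferative gene, had 12, 16.1, 15 and 14.8 FPKM at 22 °C and 166, 276 and 143 FPKM at 30 °C (log2 fold change -3.50 with SE 0.45 and limma adjusted p = 0.000102). Among the promoters printed above, the 2 that hold the full element with lower expression at 22 °C are those of Dusp1 and Btg2, and Dio2, which holds it too, was higher. Jun, Junb and Fosb, partners of Fos, had log2 fold changes of -3.58, -3.78 and -3.31 (limma adjusted p = 2.13e-05, 6.4e-05 and 7.46e-05). The number of lower members was 19 in each of the 7 fits that left out 1 knockout. With animal 2 as the only one at 30 °C 15 were lower, with a median of -3.63.

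The 10 largest decreases also held genes outside that list. Klf2, a flow-responsive factor of endothelium, had 19, 24.8, 15.2 and 16.9 FPKM at 22 °C and 530.4, 260.0 and 379.7 FPKM at 30 °C (log2 fold change -4.15 with SE 0.47 and limma adjusted p = 5.24e-05). Apold1, an endothelial early response gene, had 3.69, 1.97, 1.4 and 2.67 FPKM at 22 °C and 103, 99.4 and 69.6 FPKM at 30 °C (log2 fold change -4.63 with SE 0.55 and limma adjusted p = 6.77e-05). Cldn5, the tight junction claudin of endothelium, had 39.4, 33.7, 22.8 and 13.5 FPKM at 22 °C and 673, 603 and 618 FPKM at 30 °C (log2 fold change -4.48 with SE 0.32 and limma adjusted p = 3.24e-06). Ccn1, a secreted matrix protein induced early, had 14.2, 16.2, 7.37 and 11.4 FPKM at 22 °C and 270.0, 351 and 294 FPKM at 30 °C (log2 fold change -4.46 with SE 0.45 and limma adjusted p = 3.24e-05). Groups were far apart in all 4. The endothelial list as a whole did not show this, since 4 of 19 tested were lower and 1 was higher (Flt1, log2 fold change 0.66, limma adjusted p = 0.0335, above 0.05 without animal 1 or 3 at either temperature, at 0.0600 to 0.112). The endothelial median was -0.23, and it was -0.06 without animal 2 at 30 °C, where 3 were higher, and -0.06 with a GC trend removed, where 1 was lower. The endothelial markers Pecam1 and Cdh5 were not called. Pecam1 had 60.2, 58.4, 41.5 and 41.9 FPKM at 22 °C and 53.5, 67.7 and 51.8 FPKM at 30 °C, and Cdh5 had 80.6, 72.3, 60.9 and 56.4 FPKM at 22 °C and 75, 103 and 72.7 FPKM at 30 °C, with overlap in both (limma adjusted p = 0.729 and 0.529).

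Macrophage genes were lower at 22 °C. Of 16 markers tested, 14 were lower and 1 was higher, with a median of -2.47, and their summed FPKM was 150.3 to 337 at 22 °C and 1074 to 3052 at 30 °C. Adgre1, which encodes the surface marker F4/80, had 2.14, 5.17, 2.11 and 1.95 FPKM at 22 °C and 29.9, 12.4 and 18.1 FPKM at 30 °C (log2 fold change -2.33 with SE 0.38 and limma adjusted p = 0.000358). Ctss, a lysosomal protease of antigen-presenting cells, had 9.58, 24, 6.49 and 10.9 FPKM at 22 °C and 424, 105 and 123 FPKM at 30 °C (log2 fold change -3.73 with SE 0.64 and limma adjusted p = 0.000516). The highest animal at 22 °C was animal 2 and the highest at 30 °C was animal 1 in both genes, and no animals overlapped. Lyz2, Cd68 and C1qb had log2 fold changes of -3.11, -3.19 and -2.96 (limma adjusted p = 0.00034, 0.000157 and 7.27e-05). Cd163, a scavenger receptor of resident macrophages, was the exception, with 2.41, 2.97, 2.92 and 5.37 FPKM at 22 °C and 1.13, 1.08 and 1.77 FPKM at 30 °C (log2 fold change 0.93 with SE 0.21 and limma adjusted p = 0.0028).

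Genes of lipid-associated macrophages, a state found around lipid-laden adipocytes, were lower in 12 of 16 cases and higher in 0 (median -1.82). Gpnmb, a membrane glycoprotein of that state, had 1.72, 4.04, 0.496 and 1.03 FPKM at 22 °C and 312, 50.9 and 52.3 FPKM at 30 °C (log2 fold change -5.09 with SE 0.66 and limma adjusted p = 0.000105). Mmp12, macrophage elastase, had 1.06, 4.21, 0.112 and 0.778 FPKM at 22 °C and 132, 31.5 and 31.3 FPKM at 30 °C (log2 fold change -4.45 with SE 0.64 and limma adjusted p = 0.000185). Both were among the 10 largest decreases, and in both animal 1 at 30 °C had several times the level of the other 2. Trem2, the lipid-sensing receptor that defines the state, had 0.435, 1.94, 0.263 and 0.269 FPKM at 22 °C and 35.2, 9.18 and 12.5 FPKM at 30 °C (log2 fold change -3.25 with SE 0.40 and limma adjusted p = 7.94e-05). Lgals3, galectin-3, had a log2 fold change of -3.73 (limma adjusted p = 0.000275). With animal 2 as the only one at 30 °C, 10 members were lower and the median was -1.21.

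All 8 genes of MHC class II antigen presentation that were tested, out of 10 listed, were lower (median -2.33). H2-Ab1 had 45.6, 84.4, 53.4 and 44.9 FPKM at 22 °C and 724, 299.5 and 466 FPKM at 30 °C (log2 fold change -2.95 with SE 0.40 and limma adjusted p = 0.000128). The invariant chain gene Cd74 had 72.2 to 127 FPKM at 22 °C and 419 to 952 FPKM at 30 °C (log2 fold change -2.78 with SE 0.41 and limma adjusted p = 0.00021). Ciita, the factor that switches these genes on, was lower too (log2 fold change -1.32, limma adjusted p = 0.000261). B and T cell markers were lower in 14 of 15 cases (median -1.39), though at low levels. Cd3e, part of the T cell receptor complex, had 0.484, 0.581, 0.219 and 0.559 FPKM at 22 °C and 3.07, 0.899 and 6.87 FPKM at 30 °C (log2 fold change -1.33 with SE 0.38 and limma adjusted p = 0.0109). The B cell gene Cd79a had 0.623, 1.57, 1.03 and 1.21 FPKM at 22 °C and 2.7, 2.94 and 15 FPKM at 30 °C (log2 fold change -1.45 with SE 0.41 and limma adjusted p = 0.00973). Animal 3 at 30 °C was the highest in both, and without it 9 lymphocyte markers were lower, the median was -0.90 Cd79a was at -0.78, still called, and Cd3e had an adjusted p of 0.0666. Interferon-stimulated genes were lower in 15 of 22 cases and higher in 0 (median -0.72), with Irf7 at 6.02, 6.01, 6.85 and 5.84 FPKM at 22 °C and 35.6, 19.9 and 23.4 FPKM at 30 °C (log2 fold change -1.78 with SE 0.30 and limma adjusted p = 0.000494). With animal 2 as the only one at 30 °C, 1 interferon gene and 2 lymphocyte markers passed as lower. The muscle covariate left the macrophage median at -2.61 and the MHC class II median at -2.45.

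**Figure D3:**
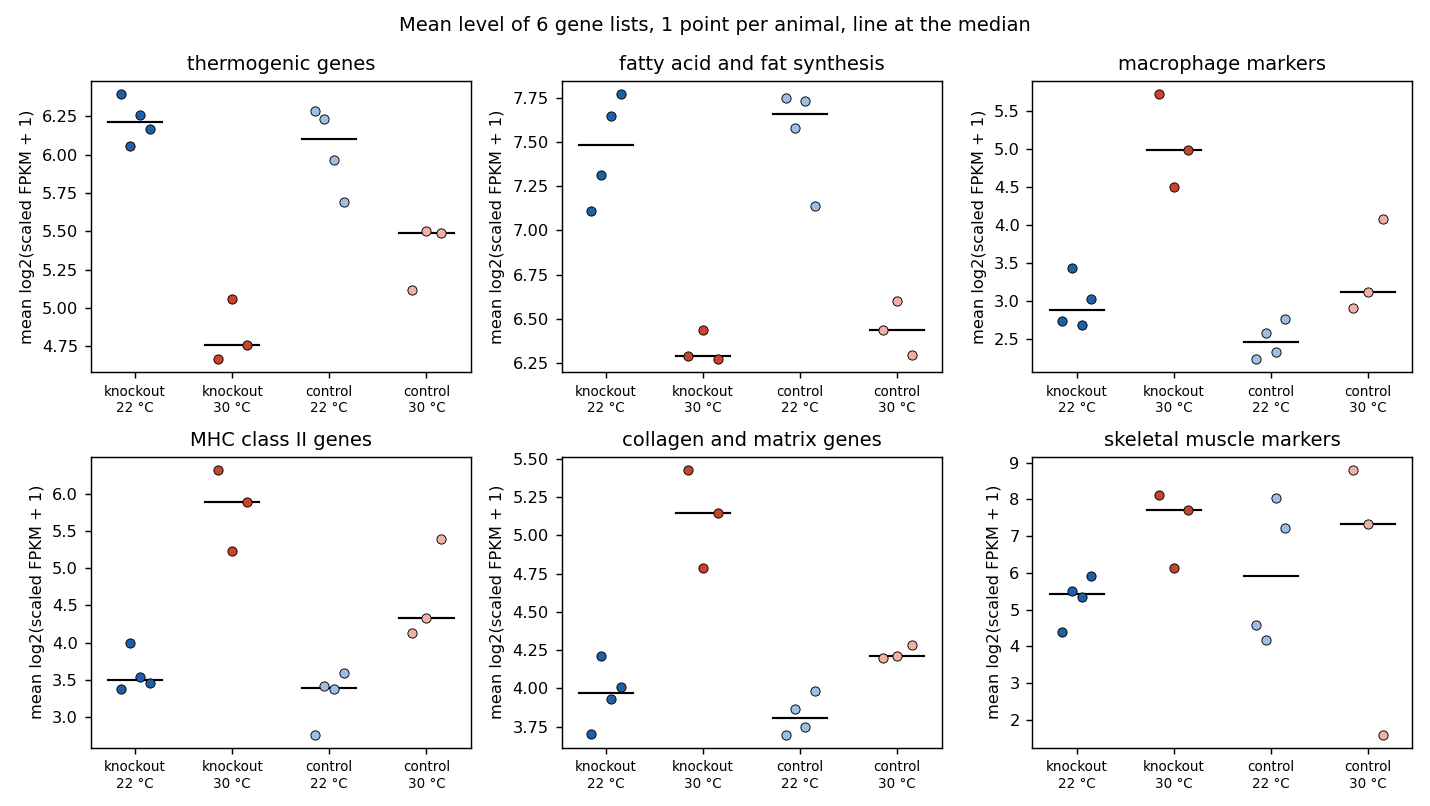
Mean log2(scaled FPKM + 1) of 6 gene lists, with 1 point per animal and a line at the group median for knockouts and controls at each temperature. In knockouts the macrophage score is 2.68 to 3.44 at 22 °C and 4.51 to 5.73 at 30 °C, and the muscle score in the last panel is 4.40 to 5.92 and 6.12 to 8.11.

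Collagen and matrix genes were lower in 22 of 27 cases and higher in 0 (median -1.21). Col1a1, the main fibrillar collagen, had 24.1, 54.3, 36.9 and 46 FPKM at 22 °C and 314, 138 and 183 FPKM at 30 °C (log2 fold change -2.24 with SE 0.28 and limma adjusted p = 8.95e-05), with the groups apart and animal 1 highest at 30 °C. Thbs1, thrombospondin 1, had 0.721, 1.86, 0.666 and 0.98 FPKM at 22 °C and 22.1, 11.9 and 21.1 FPKM at 30 °C (log2 fold change -3.08 with SE 0.26 and limma adjusted p = 1.34e-05). Tgfb1, the growth factor that drives matrix deposition, had 11.6, 17.6, 15.6 and 10.4 FPKM at 22 °C and 70.9, 47.5 and 57.3 FPKM at 30 °C (log2 fold change -1.92 with SE 0.24 and limma adjusted p = 7.91e-05). Sparc, a matrix protein that adipocytes make too, was not called (log2 fold change -0.23, limma adjusted p = 0.103). Markers of fibroblasts (5 of 7 lower, median -0.81), smooth muscle (4 of 9, median -1.06) and nerve and Schwann cells (4 of 6, median -1.11) had members called as lower beside them, and their part in the matrix difference was not tested. The smooth muscle median was -0.39 with the muscle covariate and -0.48 with a GC trend removed, and 2 nerve and Schwann cell markers were lower without animal 1 at 30 °C. Haemoglobin genes, a mark of blood, gave 0 calls among 4, with a median of 0.62 that was 0.31 without animal 4 at 22 °C and 0.41 without animal 2 at 30 °C.

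Cell cycle and DNA replication genes were lower in 17 of 19 cases and higher in 0 (median -0.78), at low levels. The replication helicase gene Mcm5 had 1.12, 1.92, 1.21 and 1.28 FPKM at 22 °C and 6.59, 4.78 and 6.19 FPKM at 30 °C (log2 fold change -1.41 with SE 0.17 and limma adjusted p = 6.67e-05). The mitotic gene Cdc20 had 0.596, 0.611, 0.736 and 0.568 FPKM at 22 °C and 4.94, 3.25 and 4.22 FPKM at 30 °C (log2 fold change -1.52 with SE 0.18 and limma adjusted p = 7.46e-05). Neither gene overlapped between the groups. The proliferation marker Mki67 did overlap, with 0.456, 1.15, 0.337 and 0.867 FPKM at 22 °C and 2.15, 1.14 and 1.19 FPKM at 30 °C (log2 fold change -0.48 with SE 0.19 and limma adjusted p = 0.0471). It was not called without animal 1, 3 or 4 at 22 °C or animal 1 or 3 at 30 °C (adjusted p 0.0510 to 0.233) or with the muscle covariate (adjusted p = 0.0504). Another 7 of the 26 listed cell cycle genes fell under the expression filter. Since a gene expressed in 1 group alone could pass that filter through this group, the counts for weakly expressed lists describe the members tested and no others. Fold changes of such genes also depend on the pseudocount. On recovered reads fitted with voom, which has no pseudocount of that size, they were -2.52 for Cdc20, -1.01 for Mki67, -2.39 for Cd3e, -2.18 for Ciita, 1.5 for Cd163, -6.09 for Fosb and -2.43 for the clock gene Npas2, all called, and the medians were -1.29 for cell cycle genes and -2.93 for lipid-associated macrophage genes.

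Loss of mitochondrial function often switches on the integrated stress response, a programme led by the factor Atf4, and its genes were therefore compared between the 2 sets of knockouts. Its regulators gave few calls, 2 higher and 4 lower of 19, with a median of 0.14. Atf4 had 262, 164, 112 and 116 FPKM at 22 °C and 152, 124 and 161 FPKM at 30 °C, which overlapped (log2 fold change 0.19 with SE 0.26 and limma adjusted p = 0.56). Trib3, its target, overlapped as well, with 164, 181, 65.8 and 39.9 FPKM at 22 °C and 90.3, 139 and 160.3 FPKM at 30 °C (log2 fold change -0.32 with SE 0.40 and limma adjusted p = 0.521). Ddit3 (CHOP) was not called (limma adjusted p = 0.412). Atf3 was lower, with 19.6, 14.6, 3.99 and 5.99 FPKM at 22 °C and 113, 62.9 and 101 FPKM at 30 °C (log2 fold change -3.03 with SE 0.66 and limma adjusted p = 0.00233). So was Cebpb (log2 fold change -1.73, limma adjusted p = 0.00942, and 0.0550 without animal 1 at 30 °C). With a GC trend removed Cebpb was not called (log2 fold change -0.54, adjusted p = 0.339). Cebpg was higher (log2 fold change 1.06 with SE 0.13 and limma adjusted p = 6.77e-05). The median of the regulators was 0.03 without animal 2 at 30 °C and 0.04 without animal 1 at either temperature. With the muscle covariate 1 regulator was higher instead of 2. The number of lower regulators was 2 instead of 4 with a GC trend removed, without animal 3 or 4 at 22 °C or without any 1 of the 30 °C animals.

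Amino acid and folate genes that Atf4 controls gave 2 higher and 9 lower of 21 (median -0.39). Without animal 3 at 30 °C 4 were lower, with a GC trend removed 5 were, with a median of -0.24, and with the muscle covariate 6 were. Phgdh, the entry enzyme of serine synthesis, had 27.1, 33.9, 28.4 and 24 FPKM at 22 °C and 71.4, 109 and 130.2 FPKM at 30 °C (log2 fold change -1.70 with SE 0.31 and limma adjusted p = 0.00085). By contrast Psph, the last enzyme of that pathway, was higher (log2 fold change 0.65 with SE 0.14 and limma adjusted p = 0.00195). Asns, asparagine synthetase, and Mthfd2, a mitochondrial folate enzyme, were not called (limma adjusted p = 0.0776 and 0.193). Of the stress hormones, Gdf15, which curbs appetite, had 17.5, 8.17, 1.26 and 2.57 FPKM at 22 °C and 50.7, 26.1 and 210.2 FPKM at 30 °C (log2 fold change -3.34 with SE 0.82 and limma adjusted p = 0.00466). Fgf21 was not called and was uneven, with 16.8, 5.1, 1.35 and 1.84 FPKM at 22 °C and 1.16, 1.22 and 3.32 FPKM at 30 °C (log2 fold change 0.96 with SE 0.50 and limma adjusted p = 0.127). Animal 1 was the highest at 22 °C in both hormones. Of 16 cytosolic heat and cold shock genes, 7 were lower and 1 was higher, and 3 were lower with a GC trend removed. The near-identical Hspa1a and Hspa1b, between which reads cannot be assigned safely, had log2 fold changes of -2.24 and -2.22 (limma adjusted p = 0.000622 and 0.000648), and Cirbp, the cold-inducible RNA-binding protein gene, was not called (log2 fold change -0.52 with SE 0.23 and limma adjusted p = 0.0809). Genes of endoplasmic reticulum stress gave 5 higher and 5 lower of 20 (8 lower without animal 2 at 30 °C), with a median of -0.09 that became 0.04 after quantile normalization, -0.17 with the muscle covariate, and -0.14 to -0.03 with 1 animal left out.

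Of 19 circadian clock genes, 63.2% were called, against 51.4% of all genes tested. They were 9 higher and 3 lower (median 0.52, and 0.34 without animal 2 at 22 °C). Among all genes tested, 21.8% were higher and 29.7% lower. Nr1d2, a repressor of the clock, had 30, 34, 25.8 and 34.7 FPKM at 22 °C and 8.88, 10.9 and 7.92 FPKM at 30 °C (log2 fold change 1.73 with SE 0.14 and limma adjusted p = 1.25e-05). Per2 had 7.51, 11.6, 8.69 and 11.2 FPKM at 22 °C and 3.34, 2.86 and 2.96 FPKM at 30 °C (log2 fold change 1.45 with SE 0.23 and limma adjusted p = 0.000292), with the groups apart in both. Arntl, the activator with the opposite phase, was lower, with 3.72, 1.42, 1.88 and 0.941 FPKM at 22 °C and 4.46, 5.42 and 4.69 FPKM at 30 °C (log2 fold change -0.95 with SE 0.22 and limma adjusted p = 0.00379). Its partner Npas2 was lower too (log2 fold change -0.87, limma adjusted p = 0.000254). The clock gene Clock went the other way and was higher (log2 fold change 0.94, limma adjusted p = 0.00609). Per1, which also responds to acute stimuli, was lower (log2 fold change -1.14 with SE 0.28 and limma adjusted p = 0.0049), and it was not called with a GC trend removed (log2 fold change -0.45, adjusted p = 0.153). Ciart was higher (log2 fold change 1.62, limma adjusted p = 7.91e-05). The labels give no time of day for the dissection, so an hour of collection that differed between the groups cannot be told apart from temperature.

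Adipocyte genes were called in both directions. Adipoq, adiponectin, which white and brown adipocytes both make, had 369, 454, 570.4 and 519.9 FPKM at 22 °C and 504, 462 and 460.1 FPKM at 30 °C, which overlapped (log2 fold change 0.09 with SE 0.16 and limma adjusted p = 0.646). Of the 10 brown adipocyte markers, 6 were higher at 22 °C and 0 lower (median 0.96). Of 15 genes of adipocyte identity and white fat, 2 were higher and 6 lower (median -0.59, and -0.37 without animal 1 at 30 °C). Pparg, the master factor of fat cells, was higher, with 267, 254, 246 and 223 FPKM at 22 °C and 103, 146 and 131 FPKM at 30 °C (log2 fold change 1.07 with SE 0.15 and limma adjusted p = 0.000134). Cebpa, its partner, was lower, with 235, 301, 473 and 299 FPKM at 22 °C and 936, 1047 and 998 FPKM at 30 °C (log2 fold change -1.55 with SE 0.22 and limma adjusted p = 0.000173), and its value was -0.62 with a GC trend removed, still called. Nrg4, a growth factor that brown fat secretes, was the other higher gene (log2 fold change 1.15 with SE 0.18 and limma adjusted p = 0.000254). Nnat, which is imprinted, and Sncg, both abundant in white fat, were lower (log2 fold changes -2.32 and -2.17, limma adjusted p = 0.00204 and 0.000698). Lep, leptin, had 1.69, 11.1, 10.7 and 15.7 FPKM at 22 °C and 17.5, 22.9 and 34.2 FPKM at 30 °C (log2 fold change -1.37 with SE 0.52 and limma adjusted p = 0.04). Its call was lost without animal 1 at 22 °C or any 1 of the 30 °C animals (adjusted p 0.0529 to 0.144) and with the muscle covariate (adjusted p = 0.0802).

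The same comparison in controls gave 4901 genes with an adjusted p under 0.05 (38.9%), 2277 higher and 2624 lower at 22 °C. No animal is shared between the comparisons. Of the genes called, 3907 were called in both genotypes, which is 60.3% of the calls in knockouts and 79.7% of those in controls, and 3902 of them had the same direction. Across the 12607 genes the fold changes had a Pearson correlation of 0.81, given as a description, and the same sex-linked split separates the temperatures in both. The median size of the log2 fold change was 0.42 in knockouts and 0.34 in controls.

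The test of the difference between the 2 temperature effects called 0 autosomal genes by limma, with 1635 at an unadjusted p under 0.05 (13.0%) and a smallest adjusted p of 0.0521. That count rests on 1 library in particular, since leaving out animal 2 of the 30 °C knockouts gave 210 genes (63 positive, 147 negative), and weighting the samples by their quality gave 208. Over all other animals left out in turn the count was 0 to 4, and it was 0 without the 2 controls whose identifiers begin with R. Thermogenic genes had 14 of 23 members at an unadjusted p under 0.05, macrophage markers 11 of 16, immediate early genes 13 of 21, lipid-associated macrophage genes 10 of 16 and matrix genes 15 of 27, while fatty acid synthesis had 4 of 25 and lymphocyte markers 1 of 15. These are to be read against the 13.0% of all genes and were not tested as lists. Medians in controls were 0.43 for thermogenic genes, -0.91 for macrophage markers, -1.73 for immediate early genes, -0.48 for matrix genes and 1.0 for fatty acid synthesis, against 1.12, -2.47, -3.31, -1.21 and 1.21 in knockouts. For Ucp1 the log2 fold change was 1.35 in controls and 2.63 in knockouts, a difference of 1.28 with a limma adjusted p of 0.287, and for Fos it was -2.76 and -5.71, a difference of -2.94 with a limma adjusted p of 0.213.

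The 5 genes with the smallest p of the difference shared a limma adjusted p of 0.0521. Clstn3 had 83.6, 84.5, 90.6 and 79.9 FPKM in controls at 22 °C and 43.1, 73.5 and 79.5 FPKM at 30 °C, so that it was low in the 30 °C knockouts, at 14.2 to 18.5 FPKM, and not in the 30 °C controls (difference 1.97). Thbs1 had 0.442, 0.788, 0.796 and 1.25 FPKM and 1.54, 3.08 and 1.54 FPKM in controls, and only the 30 °C knockouts were above 10 FPKM (difference -2.38). Nrarp, a feedback inhibitor of Notch signalling, had 2.32, 2.97, 2.66 and 3.81 FPKM and 11.7, 15.3 and 11.9 FPKM in controls against 5.69, 4.36, 2.34 and 2.97 FPKM at 22 °C and 48.7, 60 and 56.4 FPKM at 30 °C in knockouts (difference -1.69). Scamp5, a vesicle membrane protein gene, had 1.77 to 2.47 FPKM over the 7 controls, 2.08 to 2.37 FPKM in knockouts at 22 °C and 5.10 to 7.07 FPKM in knockouts at 30 °C (difference -1.0). Epcam, an epithelial adhesion gene, went the other way, with 0, 0, 0 and 0.0277 FPKM and 2.68, 2.54 and 1.63 FPKM in controls and at most 0.577 FPKM in any knockout (difference 1.42). Epcam passed the expression filter through the 30 °C controls alone, the group in which it was high, so its small p is not support for a difference. The 2 markers tested of mesothelium, a lining tissue, summed to 1.34 to 1.96 FPKM at 22 °C and 6.27 to 19.7 FPKM at 30 °C in controls. In knockouts they summed to 0.704 to 1.84 FPKM and 1.55 to 6.30 FPKM. A part of lining tissue in the Epcam difference was not tested. Klf2 was lower at 22 °C in knockouts by a log2 fold change of -4.15 and had -0.58 in controls, a difference of -3.57 with a limma adjusted p of 0.0902.

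**Figure D4:**
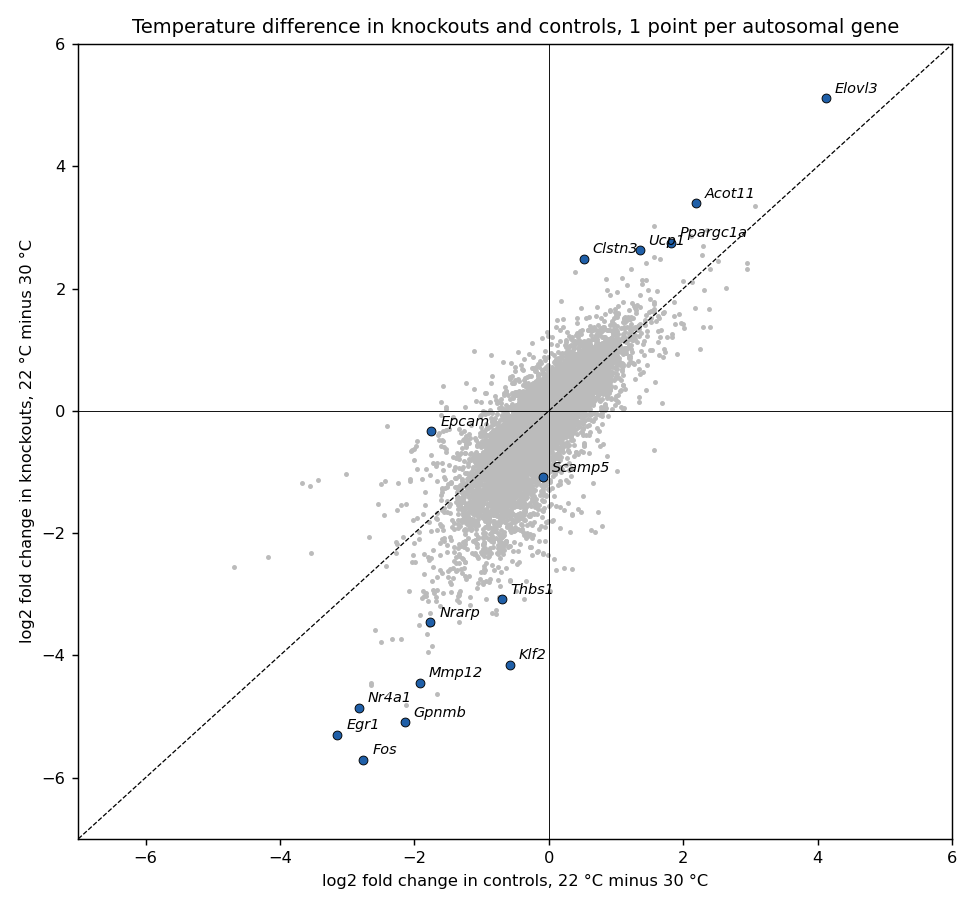
Log2 fold change between 22 °C and 30 °C in controls (x axis) and in knockouts (y axis), with 1 point per autosomal gene, 15 named genes in blue and a dashed line of equal change. Elovl3 lies at 4.12 and 5.11 near that line, while Clstn3 (0.52 and 2.49) and Klf2 (-0.58 and -4.15) lie away from it.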

How the data were processed

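RNA sequencing of whole brown adipose tissue gave 1 library per animal. The authors deposited gene values as FPKM, normalised for gene length and library depth, and the build is mm9 per the submitters' processing notes. The aligner, counting tool and use of strand are not given in the sources used here. Of 35275 genes in the table, 34490 matched GENCODE M21, used for symbols, chromosomes, length and GC content. A gene was kept if 3 or more of the 14 samples reached 1 FPKM, which left 13079 genes, 12607 of them autosomal. Each library was scaled by its median ratio over 10049 nuclear genes expressed in every library, and log2(scaled FPKM + 1) was fitted with limma 3.58.1 in R 4.3.3 (lmFit, eBayes with trend), 1 mean per group over all 14 samples. The pseudocount of 1 shrinks the fold changes of low genes. Benjamini-Hochberg adjustment ran over all 13079 genes, and an adjusted p under 0.05 was called; SE is that of the log2 fold change. Depth came from the steps between low FPKM values of genes with 1 transcript, of which 87.4% to 89.4% fell on whole reads (within 0.02 reads, up to 10 reads) per library. Animals are numbered in accession order, which pairs nothing.

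The members, lists and tests were chosen with earlier results of these data known. Named genes are the 10 largest increases and the 10 largest decreases in knockouts that were called, had ranges free of overlap and reached a mean of 5 FPKM in either group, the 5 smallest p of the difference between genotypes, Lrpprc, and list members; beyond the defining genes of the lists and their extremes, members were picked after their values were seen. Alternatives changed the pseudocount, filter, scaling, samples fitted, eBayes options and minimum fold change, added GC and muscle terms, used limma voom on recovered reads, and left out each animal; the use of animal 2 alone at 30 °C was chosen after seeing the data. The fit was also run on simulated reads, with few genes changed and no GC, muscle or batch difference. That run does not cover changes as broad as those seen here. Promoters are from RefSeq (GRCm38.p6), matched by symbol, and 16 of 21 immediate early and 18 of 23 thermogenic genes had an entry. Plots were drawn with matplotlib 3.10.9 and tables with pandas 2.3.3 under Python 3.11.15. Genes on sex chromosomes and mitochondrial DNA were not reported, apart from Xist and Ddx3y.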

Additional observations from a re-analysis of the deposited data

Results flagged for a closer look

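In the group of 4 knockouts at 22 °C, each named gene and list score was examined for 1 animal that stood apart from the other 3 by Dixon's ratio (the gap to the nearest animal over the whole range, on the log2 scale of scaled FPKM, against the 95% critical value for 4 samples). It did so in 20 of 201 values examined, and chance gives about 1 in 20. The group of 3 at 30 °C is too small for this measure.

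Animal 2 was high in the macrophage genes Adgre1 (0.93) and Trem2 (0.856) and in the antigen presentation genes Cd74 (0.863) and Ciita (0.835), while staying under every 30 °C animal in all 4. It was low in Aspg (0.849), Ucp3 (0.903), the clock gene Clock (0.91) and the citric acid cycle score (0.914). Animal 3 was low in Lrpprc (0.843), in the chaperonin gene Hspd1 (0.85), in Lpl (0.891) and in the cholesterol score (0.894), and high in Cdc20 (0.969). Animal 1 was low in Srebf1 (0.904), in Btg2 (0.926) and in the muscle gene Ckm (0.88), and high in the score of mitochondrial chaperones and proteases (0.841). Animal 4 was low in Lars2 (0.846) and high in Prkar2b (0.9) and Per1 (0.843). What sets these values apart was not tested.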

How the results depend on the processing

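No paired analysis was possible because each animal gave 1 library at 1 temperature, and the labels link no animals across the groups. The number of genes called in knockouts, 6483, was 4143 with a mean FPKM of at least 5 (fewer genes tested), 1692 with a log2 fold change of at least 1, and 1762 with animal 2 alone at 30 °C (fewer samples); leaving out 1 animal gave 5091 to 6343. In controls 4901 became 745 with the fold change condition and 2860 with a GC trend removed, where the cause was not tested, and leaving out 1 animal gave 3385 to 5555. The difference between genotypes, at 0 genes, became 9 with no filter, 6 with FPKM as deposited, 8 with quantile normalization, 10 with equal totals, 7 without the variance trend, 208 with sample weights, 13 with a GC trend removed, 3 with the muscle covariate and 4 with animal 2 alone at 30 °C; leaving out 1 animal gave 0 to 210. The cause was not tested.

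Of 160 genes followed in knockouts, 138 were called, and Ndufs7 was the 1 called gene to change sign, to 0.20 with a GC trend removed. Genes not called changed sign as follows. Adipoq went to -0.0088 with FPKM as deposited and -0.0026 with a GC trend removed. Pecam1 went to 0.011 after quantile normalization. A GC trend removed gave 0.078 for Adrb3, 0.35 for Srebf1 and 0.28 for Trib3. With animal 2 alone at 30 °C Adrb3 was 0.12 and Srebf1 0.053. Leaving out 1 animal gave -0.0098 to 0.22 for Adipoq, -0.056 to 0.33 for Atf4, -0.43 to 0.030 for Srebf1 and -0.61 to 0.074 for Trib3, with the change of sign without animal 3 at 22 °C for Adipoq, animal 1 for Atf4 and Srebf1, and animal 4 for Trib3. Among list medians, endoplasmic reticulum stress became 0.043 after quantile normalization and 0.17 with animal 2 alone at 30 °C, stress response regulators became -0.0062 with that animal alone, and muscle markers became 0.092 with the muscle covariate, which removes them by construction. Called genes lost their call in 55 cases with animal 2 alone at 30 °C and in 17 for at least 1 animal left out. With no filter Flt1, Gpihbp1, Lep, Mki67, Plin2 and Prdm16 also lost theirs.

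Precision is set by 3 and 4 animals a group. Between the knockouts the sex-linked transcripts and the number range of the identifiers cannot be told apart from temperature. Muscle markers lay higher in each of the 30 °C knockouts by their sum and overlapped in controls. Reads were not used here.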
